A study of Mus musculus with 2 samples.

Results

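The genes described here encode the translation initiation factors and carry symbols that start with Eif1 to Eif6. Of the 32285 genes listed in the count tables, 51 were members by this rule, which leaves out Eif2s3y, the Eif2ak kinase genes and pseudogene symbols ending in -ps. Over the cells of both libraries, 47 of the 51 had a mean of at least 10 CPM (a gene's UMIs scaled to the same total of UMIs in the cells of each library). UMIs are molecular tags (unique molecular identifiers), so that each one counted stands for 1 captured transcript. The members were described by factor: eIF1 (5 genes), eIF2 (3), the unconventional eIF2A and eIF2D (2), eIF2B (5), eIF3 (14), eIF4 with its binding proteins (16), and eIF5, eIF5A, eIF5B and eIF6 (5). The last member, Eif2c5, is annotated as a lincRNA and takes its symbol from an older naming of Argonaute genes, so it belongs to no factor.

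The cells were E14 mouse embryonic stem cells of 129/Ola background, a single cell line grown on gelatin in medium with serum and leukaemia inhibitory factor. In the group named control they received a control siRNA, and in the group named sonKD an siRNA against Son, an RNA-binding protein of nuclear speckles with a role in splicing. Both groups shared Lipofectamine2000, harvest 24 hours after transfection, freezing, thawing and sorting with the viability dye 7-AAD, and both were counted with 10x Genomics Single Cell 3' v3 chemistry. Each group held 1 library, so no test was possible, no p-value is given, and a difference between libraries cannot be told apart from an effect of the knockdown. Intervals in parentheses are at 95% and cover counting error only.

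A barcode counted as a cell from 2500 UMIs and 1000 genes upward if no more than 10% of its UMIs were mitochondrial, which gave 4978 cells in control and 2731 in sonKD. They held 40902904 and 32032551 UMIs, with a median of 7737.5 UMIs per cell in control and 11612 in sonKD. Only 2 barcode sequences occurred among the cells of both libraries. Son, the siRNA target, stood at 169 CPM (165 to 173) in control and 106 (102 to 109) in sonKD, or 62.7% of control (60.2 to 65.4). All 9 embryonic stem cell markers passed 10 CPM, and together they made up 0.859% of UMIs in control and 0.935% in sonKD. Most of that sum was Dppa5a (log2 ratio of sonKD over control 0.27), while the median ratio of the 9 was -0.07, with 6 intervals below 0, 1 above, and the lowest value at Pou5f1 (-0.27). None of the 6 fibroblast, 5 primitive endoderm, 4 trophectoderm, 3 mesoderm and 2 neuroectoderm markers did. Of these, Col3a1, Postn, Lum and Elf5 were at 0 in both libraries, and the highest values were 7.21 CPM for Sox1 (control) and 7.40 CPM for Tfap2c (sonKD). The ribosomal protein share of UMIs was 20.6% in control and 24.0% in sonKD, and the median log2 ratio (sonKD over control) of all 8063 genes at 10 CPM was -0.12. Member ratios are therefore also given against that median.

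Translation of most messenger RNAs begins when eIF2, loaded with GTP and the initiator methionyl-tRNA, joins the small ribosomal subunit together with eIF1, eIF1A, eIF3 and eIF5. The eIF4 group brings this complex to the capped end of the mRNA through the cap-binding protein eIF4E, the scaffold eIF4G and the RNA helicase eIF4A, and eIF5B then joins the large subunit. The exchange factor eIF2B returns eIF2 to its GTP form, and this step is slowed by phosphorylated eIF2 in the integrated stress response. Several mRNAs of the translation machinery start with a run of pyrimidines, the TOP motif, which ties their translation to mTOR signalling.

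Start windows are shown because a pyrimidine run at the start is the sequence feature best known in transcripts of the translation machinery. RefSeq start sites on GRCm38.p6 were matched for 39 of the 51 members, and each window holds 30 bases around the start on the gene's strand. Capitals mark a C followed by at least 4 letters that are C or T, beginning within 5 bases of the annotated start. The windows lie at chr7:108934405-108934434 (plus strand) for Eif3f, chrX:94212632-94212661 (minus) for Eif2s3x, chr15:79075213-79075242 (plus) for Eif3l, chr16:20498807-20498836 (plus) for Eif2b5 and chr16:20672717-20672746 (plus) for Eif4g1.
Eif3f: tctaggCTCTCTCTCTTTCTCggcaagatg
Eif2s3x: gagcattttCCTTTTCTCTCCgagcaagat
Eif3l: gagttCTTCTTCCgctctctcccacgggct
Eif2b5: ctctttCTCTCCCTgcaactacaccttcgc
Eif4g1: gcgcagctccgCCCTCTgcgccggtcacgt
The windows of 2 members with among the lowest ratios, Eif4a1 at chr11:69672404-69672433 (minus) and Eif2d at chr1:131153197-131153226 (plus), held no such run.
Eif4a1: gtaacgtcacgtcgagttgcagagcgccgg
Eif2d: gttccgggccagcatcagggctagggccgg
Eif1a, Eif2b3, Eif3e, Eif3h, Eif3i, Eif3j2, Eif4e1b, Eif4e3, Eif4ebp1, Eif4ebp3, Eif4g2 and Eif6 had no matched entry.

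The initiation factor genes together made up 1.55% of all UMIs in control cells (1.54 to 1.55) and 1.47% in sonKD cells (1.46 to 1.47), a log2 ratio of -0.08. That ratio was 0.01 with trimmed-mean (TMM) factors, 0.04 with size factors from the median of ratios and -0.003 with mitochondrial and ribosomal protein genes left out of the total. Levels kept nearly the same order in both libraries, with a Spearman correlation over the 47 genes of 0.992. In control the 47 levels ran from 10.4 CPM for Eif4ebp3 to 1413 for Eif4a1, with a median of 221 CPM. In sonKD they ran from 10.6 CPM for Eif4ebp3 to 1307 for Eif5a, with a median of 193 CPM. The genes at or above 1000 CPM were Eif1, Eif2s2, Eif4a1 and Eif5a in both libraries. These are UMIs per molecule tagged at the 3' end and were not divided by transcript length. Some counts are uncertain because 50-base words of the last 400 bases also occur in other genes of the GENCODE M21 annotation that the count tables do not list. That share was 100% for Eif4ebp3, 39.0% for Eif3m, 26.8% for Eif3h, 24.5% for Eif3e, 20.8% for Eif4a2, 18.4% for Eif4e and 8.70% for Eif5a. Of the words of Eif1, 27.4% occur in any other gene and 17.1% in listed genes such as Emd.

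**Figure D1:**
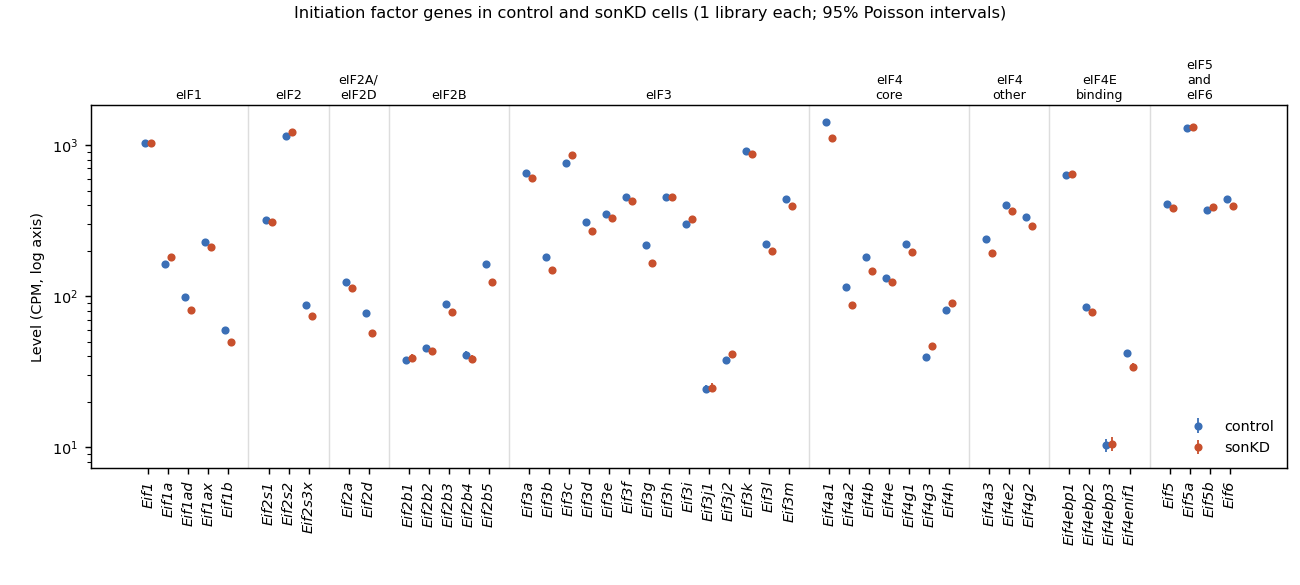
Level of each of the 47 initiation factor genes that reached 10 CPM, on a log axis in CPM, grouped by factor. Points are the control and sonKD libraries and bars are 95% Poisson intervals; Eif4a1 stood at 1413 CPM in control and 1120 in sonKD, while Eif5a stood at 1302 and 1307.

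The median log2 ratio of the 47 members was -0.10, or 0.01 above the median of all genes, with 25 members above that median and 22 below it. With no test at hand, a gene was counted as higher or lower only past 0.32 in log2 ratio, that is, at least 25% higher or 20% lower in sonKD. No member was higher by this limit, against 3.5% of all 8063 genes. Lower were 5 of 47 members, which is 10.6%, against 10.2% of all genes. They were Eif2d, Eif4a2, Eif3g, Eif2b5 and Eif4a1. Of these, Eif2d alone stayed past the limit with TMM factors or with the median of ratios. With mitochondrial and ribosomal protein genes left out of the total, Eif2d and Eif4a2 did. Eif4b and Eif4enif1, both at -0.32, fell just short of the limit. Counting intervals lay below 0 for 29 members, where all genes had 51.5%, and above 0 for 8, where all genes had 12.3%. Such counts depend on UMIs per gene, and 39 of the 47 members but 3204 of the 8063 genes had a mean of at least 50 CPM. Relative to the all-gene median the picture was narrower: Eif2d alone was lower by the same limit (3.82% of all genes) and Eif4g3 alone higher (6.46%). Over all genes that change of scale turned 820 lower and 282 higher genes into 308 lower and 521 higher.

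**Figure D2:**
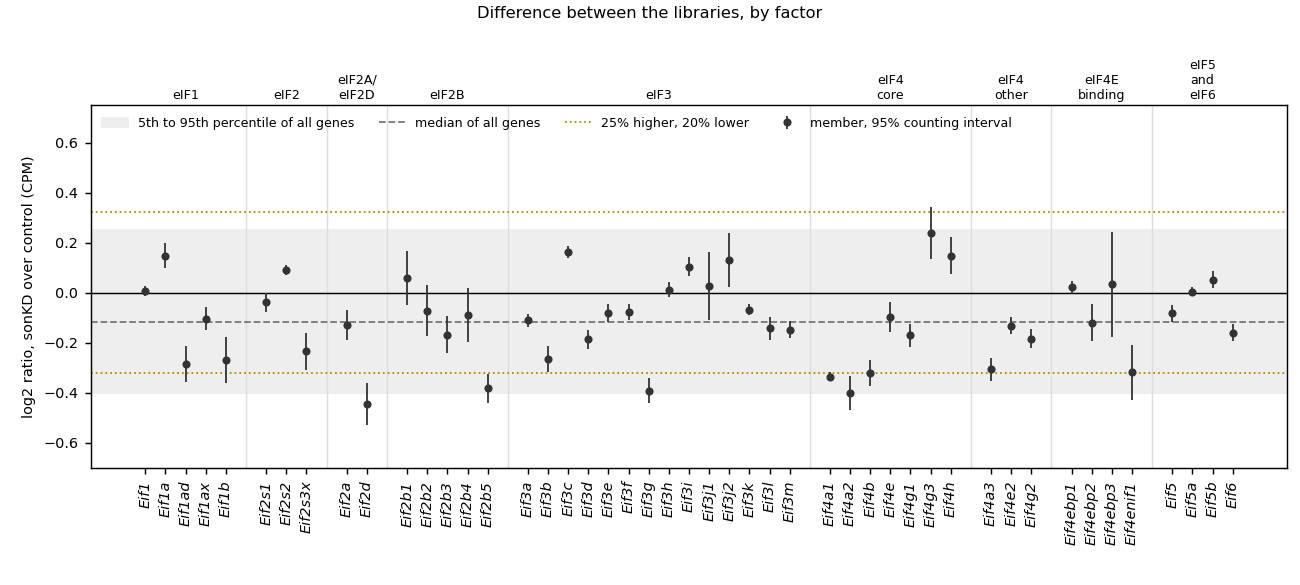
Log2 ratio of CPM, sonKD over control, for each of the 47 genes, with 95% counting intervals. The dashed line is the median of all 8063 genes (-0.12), the shaded band their 5th to 95th percentile (-0.40 to 0.25) and the dotted lines the limits of 25% higher and 20% lower; Eif2d (-0.44) lies below the band and 5 genes lie beyond the lower dotted line.

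The subunits of eIF2, which carries the initiator tRNA, did not move together. Eif2s2, the beta subunit, stood at 1148 CPM (1137 to 1158) in control and 1223 (1211 to 1235) in sonKD. Its log2 ratio was 0.09 (0.07 to 0.11), and it was the only member whose interval lay above 0 both in cells of 5000 to 10000 UMIs and in cells of 10000 to 20000 UMIs, as 6.36% of all genes did. Eif2s1, the alpha subunit phosphorylated in the integrated stress response, stood at 320 CPM in control and 312 in sonKD, a ratio of -0.04 (-0.07 to 0.00). The X-linked gamma subunit gene Eif2s3x stood at 87.3 CPM and 74.3 CPM, a ratio of -0.23 (-0.31 to -0.16). Eif2s3x was thus the lowest of the 3 genes in level and in ratio. Eif2s3y, left out by the rule, was not counted here. The median ratio of the 3 genes was -0.04, and it became 0.05 with TMM factors, 0.08 with the median of ratios and 0.04 with mitochondrial and ribosomal protein genes left out of the total. The summed share was slightly higher in sonKD, 0.155% of UMIs in control and 0.161% in sonKD, where Eif2s2 carries most of the UMIs. In the GENCODE M21 annotation, 26.1% of the 50-base words in the last 400 bases of Eif2s2 transcripts and 39.7% of those of Eif2s3x also occur in pseudogenes or other genes that the count tables do not list.

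Eif2a and Eif2d encode factors that can deliver initiator tRNA without eIF2, and both were lower in sonKD. Eif2d (chr1:131153181-131187658, plus strand, GENCODE M21 on GRCm38) stood at 77.5 CPM (74.9 to 80.3) in control and 57.0 (54.4 to 59.6) in sonKD. Its log2 ratio of -0.44 (-0.53 to -0.36) was the lowest of the 47 members and lay 0.33 below the all-gene median, at percentile 3.65 of all genes. It lay inside the limit in cells of 5000 to 10000 UMIs (-0.30), in cells of at least 20000 UMIs (-0.23, interval -0.61 to 0.16) and in cells of 5 to 10% mitochondrial UMIs (-0.31). Eif2a stood at 124 CPM and 114 CPM, a ratio of -0.13 (-0.19 to -0.07) that differed from the all-gene median by only 0.01.

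Of the 5 subunit genes of the exchange factor eIF2B, 1 stood apart. Eif2b5 (chr16:20498817-20509323, plus strand), which encodes the catalytic epsilon subunit, stood at 162 CPM (158 to 166) in control and 125 (121 to 128) in sonKD, a log2 ratio of -0.38 (-0.44 to -0.32). It was also the most abundant of the 5 in both libraries. The gamma subunit gene Eif2b3 stood at 88.7 CPM and 79.0 CPM (-0.17). The regulatory subunit genes Eif2b1, Eif2b2 and Eif2b4 lay between 37.7 and 45.5 CPM in control and between 38.7 and 43.3 in sonKD, and the intervals of their ratios of 0.06, -0.07 and -0.09 all spanned 0. The eIF2B median was -0.09, and it was 0.00 with TMM factors and 0.03 with the median of ratios. Summed over the 5 genes, eIF2B made up 0.0375% (control) and 0.0325% (sonKD) of UMIs, a log2 ratio of -0.21 (-0.24 to -0.17) that rests mainly on Eif2b5.

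The multi-subunit scaffold eIF3 was the largest factor group, at 0.531% of UMIs in control and 0.512% in sonKD. The median ratio of its 14 genes was -0.08, with 9 above the all-gene median and 5 below, and it was 0.01 with TMM factors, 0.04 with the median of ratios and -0.01 without mitochondrial and ribosomal protein genes. Eif3g (chr9:20894349-20898623, minus strand), which encodes an RNA-binding subunit near the mRNA entry channel, was the only one past the limit. It stood at 217 CPM (213 to 222) in control and 166 (161 to 170) in sonKD, a ratio of -0.39 (-0.44 to -0.34). Its partners in the peripheral module differed in size of ratio: Eif3b, the scaffold that binds Eif3g and Eif3i, stood at 180 CPM and 150 CPM (-0.27), while the WD-repeat subunit gene Eif3i stood at 302 CPM and 325 CPM (0.11, interval 0.07 to 0.14). The intervals of Eif3g and Eif3i did not overlap.

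Among the other core subunits of eIF3, Eif3a, which encodes the largest subunit, stood at 653 CPM and 605 CPM (-0.11), and Eif3c at 766 CPM and 858 CPM. The Eif3c ratio of 0.16 (0.14 to 0.19) was the highest of the factor. Eif3d, whose product can itself bind mRNA caps, stood at 308 CPM and 271 CPM (-0.19). The most abundant was Eif3k at 911 CPM and 870 CPM (-0.07). Eif3e, Eif3f and Eif3h, which encode subunits of the structural core, stood at 349, 451 and 452 CPM in control and at 330, 427 and 456 CPM in sonKD, with ratios of -0.08, -0.08 and 0.01. Eif3l and Eif3m stood at 221 and 436 CPM in control and at 200 and 394 CPM in sonKD, with ratios of -0.14 and -0.15. All of these lay within 0.13 of the all-gene median except Eif3c. The loosely bound subunit eIF3j has paralogous genes: Eif3j1 stood at 24.4 and 24.8 CPM, and the single-exon copy Eif3j2 at 37.7 and 41.3 CPM. Their values are uncertain because 85.8% of the 50-base words in the last 400 bases of Eif3j2 occur in Eif3j1.

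The median ratio of the 14 eIF4 genes was -0.15, and it stayed below 0 with TMM factors (-0.06), with the median of ratios (-0.03) and without mitochondrial and ribosomal protein genes (-0.08). The eIF4 genes took 0.393% of UMIs in control (0.391 to 0.395) and 0.343% in sonKD (0.341 to 0.345). The log2 ratio of that share, -0.20 (-0.21 to -0.18), rests mainly on Eif4a1. Of the 14 genes, 5 lay above the all-gene median and 9 below it. Eif4a1 (chr11:69666936-69672423, minus strand), the main RNA helicase gene and the most abundant member in control, stood at 1413 CPM (1401 to 1425) in control and 1120 (1109 to 1132) in sonKD. Its log2 ratio of -0.33 (-0.35 to -0.32) lay just past the limit. The second helicase gene, Eif4a2 (chr16:23107444-23114136, plus strand), stood at 115 CPM (112 to 119) and 87.4 CPM (84.2 to 90.7), a ratio of -0.40 (-0.47 to -0.33). Both helicase genes were thus lower by a like amount, and Eif4a2 made up 7.55% of their summed UMIs in control (7.34 to 7.76) and 7.24% in sonKD (6.98 to 7.50).

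The cofactors that stimulate the helicase went opposite ways. Eif4b stood at 183 CPM and 146 CPM, a ratio of -0.32 (-0.37 to -0.27), while Eif4h stood at 81.7 CPM and 90.6 CPM, a ratio of 0.15 (0.08 to 0.22). The scaffold genes also differed. Eif4g1 stood at 222 CPM and 198 CPM (-0.17, interval -0.22 to -0.12), whereas Eif4g3 (chr4:137993022-138208508, plus strand) stood at 39.5 CPM (37.6 to 41.5) and 46.6 CPM (44.3 to 49.0). The Eif4g3 ratio of 0.24 (0.14 to 0.34) was the highest of the 47 members, and its share of the summed UMIs of both scaffold genes was 15.1% in control and 19.1% in sonKD, with intervals that did not overlap. In cells of 10000 to 20000 UMIs, however, the Eif4g3 ratio was 0.05. The cap-binding protein gene Eif4e stood at 133 CPM and 124 CPM, a ratio of -0.10 that was within 0.02 of the all-gene median.

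Of the eIF4 genes with roles outside the core complex, all 3 above 10 CPM lay below the all-gene median. Eif4a3, which encodes the helicase of the exon junction complex, stood at 239 CPM and 193 CPM (-0.31, interval -0.35 to -0.26), and 19.5% of the 50-base words at its 3' end occur in the listed genes Gm8994 and Gm5580. Eif4g2, a scaffold gene whose product lacks the site for eIF4E, stood at 332 CPM and 293 CPM (-0.18), and Eif4e2, which encodes a cap-binding protein that represses translation, at 399 CPM and 365 CPM (-0.13). The repressors that bind eIF4E were nearer to 0. Eif4ebp1 stood at 632 CPM and 642 CPM (0.02), Eif4ebp2 at 85.5 CPM and 78.7 CPM (-0.12) and Eif4ebp3 at 10.4 CPM and 10.6 CPM (0.03). Of the UMIs of these 3 genes, Eif4ebp1 supplied 86.8% (control) and 87.8% (sonKD). The nuclear import carrier of eIF4E, Eif4enif1, stood at 42.2 CPM and 33.9 CPM, a ratio of -0.32 (-0.43 to -0.21).

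Among the factors that scan for and select the start codon, Eif1 was level between the libraries at 1030 CPM and 1035 CPM (0.01, interval -0.01 to 0.03). Its paralogue Eif1b stood at 60.0 CPM and 49.9 CPM (-0.27), and made up 5.51% of the UMIs of the pair in control (5.30 to 5.73) and 4.60% in sonKD (4.38 to 4.83). Of the genes for eIF1A, Eif1a stood at 163 CPM and 181 CPM (0.15, interval 0.10 to 0.20) and the X-linked Eif1ax at 227 CPM and 211 CPM (-0.10). Eif1a therefore made up 41.8% of the pair in control (41.0 to 42.5) and 46.1% in sonKD (45.2 to 46.9), and these intervals did not overlap. Eif1ad, which encodes a protein with an eIF1A-like domain, stood at 99.4 CPM and 81.6 CPM (-0.28).

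The factors of subunit joining and later steps lay near or above the all-gene median. Eif5, which encodes the GTPase activator of eIF2, stood at 405 CPM and 383 CPM (-0.08). Eif5b, the subunit-joining GTPase gene, stood at 375 CPM and 388 CPM (0.05). Eif5a, whose product carries hypusine and acts mostly in elongation and termination, stood at 1302 CPM and 1307 CPM (0.00, interval -0.01 to 0.02). Eif6, which encodes a factor that keeps the large subunit from joining too early, stood at 438 CPM and 392 CPM (-0.16). The remaining 4 members were below 10 CPM and outside the comparisons. Eif5a2 had 161 UMIs in control and 99 in sonKD, a ratio of -0.35 with an interval (-0.72 to 0.02) that spanned 0. The others were too low for a ratio to be read: Eif4e3 had 13 and 17, Eif2c5 had 5 and 3, and Eif4e1b, an oocyte form of the cap-binding protein gene, had 1 and 1.

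Depth per cell differed between the libraries, so the members were also compared in cells of like depth. In cells of 5000 to 10000 UMIs (3475 in control and 675 in sonKD) the initiation factor share was 1.55% and 1.39%. In cells of 10000 to 20000 UMIs (940 and 1770 cells) it was 1.56% and 1.49%. The share was lower in sonKD in each of the 4 depth ranges. The intervals did not overlap, though they treat each UMI as independent. The count of members at least 20% lower was 14 of 46 in the first of these ranges, where 24.2% of all genes were, and 10 of 47 in the second, where 26.4% were. Of the 5 members lower over all cells, Eif2b5, Eif3g and Eif4a2 were in both counts, while Eif2d was at -0.30 in the first range and Eif4a1 at -0.29 in the second. Across all 4 depth ranges, 19 of the 47 members lay below 0 in every range, against 22.1% of all 8063 genes. The 19 include the 5 members lower over all cells, but the ranges are parts of those same cells. Above 0 in every range were 3 members (8% of all genes), namely Eif1a, Eif2s2 and Eif4g3. Counts over ranges depend on UMIs per gene, of which the members had more than most genes, so the shares of all genes are not a like background. The intervals lay below 0 in every range for Eif3d, Eif3g, Eif4a1 and Eif6, and for 2.41% of all genes.

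The initiation factor share also moved with the mitochondrial share of the cell. In control it was 1.68% in cells with at most 3% mitochondrial UMIs, 1.53% at 3 to 5% and 1.35% at 5 to 10%, and in sonKD it was 1.59%, 1.49% and 1.33%. The difference between libraries was thus smallest in the last range. Barcodes over 10% mitochondrial UMIs, which were left out of the cells, numbered 625 in control and 1056 in sonKD, or 11.2% and 27.9% of those with enough UMIs and genes. Within the 3 ranges of cells, 28 of 47 members lay below 0 in every range, where 50% of all genes did, and 10 above 0 in every range, where 13.6% did. These 10 were Eif1, Eif1a, Eif2s2, Eif3c, Eif3i, Eif3j2, Eif4ebp1, Eif4g3, Eif4h and Eif5b. Counts of signs here depend on UMIs per gene as well. The part of cell condition in the differences between libraries was not tested.

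To compare single cells at 1 depth, each cell was thinned to 4000 UMIs, which left out 268 control and 109 sonKD cells. The median cell then held 62 initiation factor UMIs in control (5th to 95th percentile 44 to 80) and 58 in sonKD (41 to 76). By factor, the median was 21 and 20 UMIs for eIF3, 15 and 13 for eIF4, 6 and 6 for eIF2, and 1 and 1 for eIF2B. No eIF2B UMI was found in 1080 of 4710 control cells and in 773 of 2622 sonKD cells at this depth. The variance of the summed count was 1.99 times its mean in control and 1.91 times in sonKD, where independent counting of molecules alone gives 1. Of single genes, Eif2s2 had a ratio of variance to mean of 1.41 in control and 1.65 in sonKD, and Eif4a1 had 1.42 and 1.29. The median over the 47 genes was 1.06 in control and 1.07 in sonKD.

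**Figure D3:**
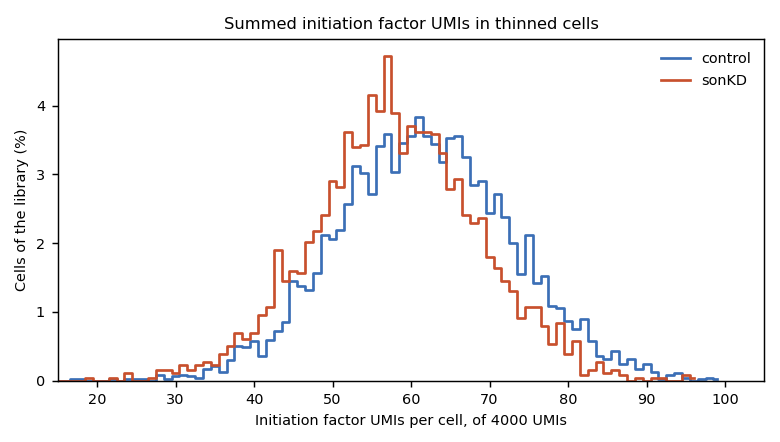
Distribution over cells of the summed initiation factor UMIs per cell after thinning to 4000 UMIs, as percent of the cells of each library (4710 control, 2622 sonKD). Both curves have 1 main peak, with medians of 62 and 58 UMIs, and they overlap over most of their range.

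At 4000 UMIs per cell, 7 members were found in over 90% of control cells and 6 in over 90% of sonKD cells, with Eif4a1 in 98.9% and 98.0%. Without thinning, Eif4a1 was found in 99.5% and 99.6%. Eif3g was found in 58.3% of thinned control cells (56.8 to 59.7) and 46.5% of thinned sonKD cells (44.6 to 48.4), and in 77.5% and 78.0% without thinning. Eif2b5 was found in 47.8% (46.4 to 49.3) and 37.8% (36.0 to 39.7) after thinning and in 69.0% and 69.8% before. The thinned interval was lower in sonKD for 19 of the 47 members, against 22.5% of all 8063 genes, and higher for 1, against 5.21%. Both counts depend on UMIs per gene too, of which the members had more than most genes. The libraries hold no second cell type that lacks these genes, so the share of cells that free RNA alone would give was not measured.

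Free RNA was read from droplets of 100 to 500 UMIs, which numbered 59886 in control and 62449 in sonKD. Initiation factor genes took 1.64% of droplet UMIs in control and 1.53% in sonKD, somewhat more than in cells. That excess rests on Eif2s2, at 2420.5 CPM in control droplets and 2585 CPM in sonKD droplets, against 1148 and 1223 CPM in cells. Eif2s2 was the member most enriched in droplets, with a log2 ratio of cells over droplets of -1.08 in both libraries, and Eif3g followed at -0.73 in control and -0.61 in sonKD. At the other end, the scaffold genes Eif4g3 (2.47 and 2.80) and Eif4g1 (1.85 and 2.19) and the largest eIF3 subunit gene Eif3a (1.60 and 1.85) were mostly in cells. The median member ratio was 0.28 in control and 0.32 in sonKD, against 0.92 and 1.03 over all genes. Over the 47 genes this ratio had a Spearman correlation with transcript length of 0.53 in control and 0.55 in sonKD, as a description over genes that share libraries. Between libraries, the droplets showed Eif2d at -0.84, Eif2b5 at -0.58, Eif4a2 at -0.51, Eif3g at -0.50 and Eif4a1 at -0.35. Eif4g3, the highest member in cells, was at -0.09 (-0.46 to 0.27) in droplets, on 131 UMIs in control and 125 in sonKD, and Eif2s2 was at 0.09. The median of that droplet comparison was -0.18 over the 47 members and -0.24 over all genes. The droplets come from the same 2 libraries as the cells, so these values are no separate measure of these genes. How much droplet RNA adds to the values in cells was not tested.

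**Figure D4:**
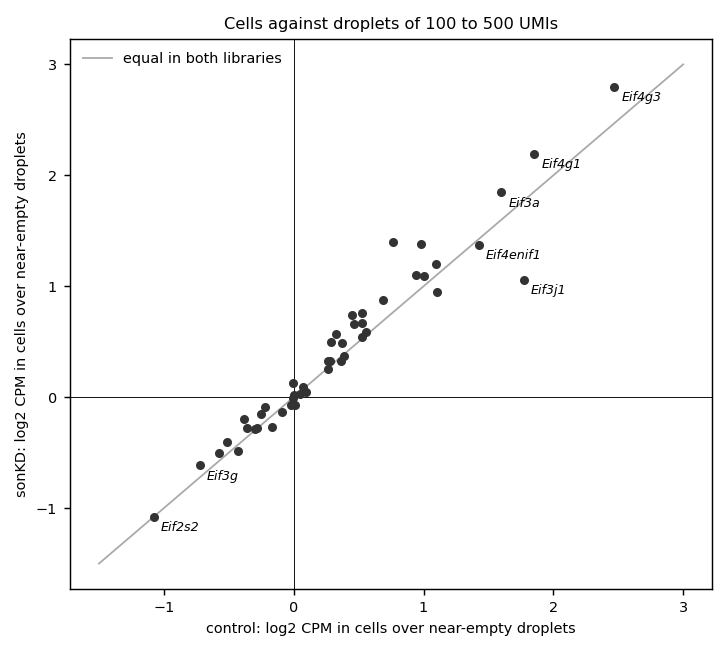
Log2 ratio of CPM in cells over CPM in droplets of 100 to 500 UMIs for the 47 genes, control on the horizontal and sonKD on the vertical axis, with the line of equal values. Eif2s2 (-1.08 in both) and Eif4g3 (2.47 and 2.80) are the ends of the range, and Eif3j1 (1.77 and 1.06) lies farthest below the line.

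Gene structure and start sequence were compared with the log2 ratios between libraries as a description over genes. Over all 8061 genes with a structure, the ratio had a Spearman correlation of -0.28 with transcript length and -0.29 with the number of exons. Over the 47 members these were -0.01 and -0.30. The pyrimidine run shown above for Eif3f and Eif2b5 was found at a start of 9 of 37 members at 10 CPM, or 24.3%, against 24.0% of 6470 genes at that level and 21.2% of all 27025 genes in the table. Members without a matched start entry, such as Eif3e and Eif3h, are outside this count. How many runs the annotated starts miss was not measured. The members with the run were Eif1ad, Eif2b2, Eif2b5, Eif2s3x, Eif3b, Eif3f, Eif3l, Eif4enif1 and Eif4g1. Their median ratio was -0.23, with a range of -0.38 to -0.07, and that of the other 28 was -0.10, with a range of -0.44 to 0.24. Over all genes at 10 CPM the medians with and without the run were -0.11 and -0.12. Ribosomal protein genes held the run in 29 of 61, or 47.5%, and had medians of 0.41 with it and 0.26 without.

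Genes that work with the initiation factors were described from further lists, and each count is to be read against the 10.2% of all genes that were lower and the 3.5% that were higher by the same limit. Of 17 measured partners of initiation, such as poly(A)-binding proteins and reinitiation factors, none was at least 25% higher and 2 were lower, with a median of -0.10. The 2 were Pabpc4, a poly(A)-binding protein gene, at -0.45 (-0.54 to -0.36) and the helicase gene Ddx3x at -0.41 (-0.48 to -0.35). Of the 9 genes for eIF2 kinases and the phosphatase that reverses them, 1 was lower, with a median of -0.10. It was Eif2ak1, the heme-regulated kinase gene, at -0.33 (-0.43 to -0.22), and Ppp1cb, a phosphatase catalytic subunit gene, followed at -0.24. Elongation and termination factors had 1 of 11 lower, Eef1d at -0.36, followed by Eef1g at -0.23, both subunits of the exchange factor of eEF1A.

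The mTOR and MNK genes that act on eIF4 went in both directions, with 2 of 14 higher, 3 lower and a median of -0.11. Tsc2 and Tsc1, whose products together restrain mTOR, were the farthest from 0, at -0.51 (-0.68 to -0.34) and -0.46 (-0.63 to -0.30). The third lower gene was Akt1s1 at -0.34 (-0.50 to -0.18). The higher genes were Lamtor3 at 0.42 (0.29 to 0.54) and Lamtor2 at 0.34 (0.29 to 0.39). Of the 6 genes of hypusine and polyamine synthesis, Amd1, which supplies the aminopropyl donor, was lower at -0.53 (-0.68 to -0.39). None was higher, and the spermine synthase gene Sms stood at 0.26. For comparison with other translation genes, 43 of 81 ribosomal protein genes were at least 25% higher and 2 lower, with a median of 0.35. Their ratios ran from -0.50 (Rpl21) to 1.99 (Rpl29). The 20 cytosolic aminoacyl-tRNA synthetase genes had none higher, 2 lower and a median of -0.15, with ratios from -0.95 (Vars) to 0.20 (Nars). The initiation factor median of -0.10 thus lay beside those of the synthetases and of the initiation partners, and below that of the ribosomal proteins, in these libraries.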

How the data were processed

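The files give raw UMI counts for every gene in every barcode, deposited as the authors made them with Cell Ranger 7.1.0 on mm10, per the submitters' processing notes. The annotation, and whether intronic reads were counted, are not given in the sources used here. The control file totals 71046373 UMIs over 1408944 barcodes and the sonKD file 60352438 over 1400093. Groups were taken from the sample titles. Since the labels disagree on the NextSeq model, no instrument is named.

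The members, the gene lists and the alternatives were chosen with earlier results of these data known. Counts were summed over cells and divided by the library sum to give CPM. Log2 ratios carry no pseudocount, but a count under 3 was first set to 3. The 95% intervals of levels are exact Poisson, those of shares Clopper-Pearson, and those of ratios come from the exact binomial of 1 library's counts given the sum of both. No fold was computed where both libraries had 3 counts or fewer. With 1 library per group, a gene past 0.32 in log2 ratio (25% higher or 20% lower) was counted as higher or lower, with no test. Every member was named whatever its ratio. Of each further list other than the cell type markers, the 2 genes at 10 CPM farthest from 0 were named. In the mTOR and MNK list every gene past the limit was named as well. Ribosomal protein and synthetase genes were compared as sets, with only the ends of their range named. Nat1, listed among the initiation partners, is the symbol of an acetyltransferase gene and was below 10 CPM.

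Scrublet, as in scanpy 1.11.5, called 3 control cells and 1 sonKD cell, under the 0.5% set for a working call, so doublets were kept. Positions, 3' ends and gene types came from GENCODE M21 on GRCm38, and start windows from RefSeq on GRCm38.p6. The interval calculation was tested on simulated data. Alternatives were TMM factors (edgeR 4.0.16), the median of ratios, CPM without mitochondrial and ribosomal protein genes, other limits on UMIs and mitochondrial share, doublets removed by rate, the mean of CPM per cell, thinned cells, other CPM minimums and 1 CPM added. Scripts ran under Python 3.11.15 (numpy 2.4.6, scipy 1.17.1, pandas 2.3.3) and R 4.3.3.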

Additional observations from a re-analysis of the deposited data

Results flagged for a closer look

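Barcodes with over 10% mitochondrial UMIs were outside the comparisons, and they also carried initiation factor transcripts. The member share in them was 1.26% in sonKD, above the 1.23% in control, whereas in cells it was lower in sonKD. The intervals of both shares did not overlap, but they treat each UMI as independent. In thinned cells the variance of the summed count was 1.99 times its mean in control and 1.91 times in sonKD, where independent counting gives 1. Whether the difference in these barcodes exceeds the spread between barcodes was not tested. The eIF2 share in these barcodes was 0.22% in sonKD and 0.185% in control, both above the 0.161% and 0.155% in cells. Within them, Eif2s2 stood at 1516 CPM in control and 1896 in sonKD, a log2 ratio of 0.32. Eif2s1 and Eif2s3x had ratios of -0.17 and -0.09 there, so the higher eIF2 and member shares rest on Eif2s2. The median ratio of the 47 members in these barcodes was -0.10, against -0.14 over all genes. These barcodes numbered 625 in control and 1056 in sonKD.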

How the results depend on the processing

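Each group held 1 library, so no replicate could be left out and depth limits only the counting error. Members under 10 CPM were left out of the main comparisons. No paired analysis was possible because each group held 1 sample and no test was made. Of 109 recomputed medians, counts and shares, 72 stayed near the value in the report and 37 moved. A share stayed if within its counting interval, and a count if within 1.5 times. A median stayed if between the medians of the single genes' lower and upper bounds, which is no interval of the median itself. Of 687 single-gene values, 488 stayed within the gene's counting interval, 199 moved and none of the 5 genes past the limit changed sign. The cause of each move was not tested, except that a scaling shifts every gene alike, by 0.12 at most on the log2 scale. That is too little to turn the sign of any of these 5 genes. With TMM factors the medians were -0.0131 for all members, 0.0531 for eIF2, 0.0120 for eIF3 and -0.0596 for eIF4, 1 member was higher and 1 lower past the limit of 0.32 (5.57% and 4.6% of all genes), and the log2 ratio of the summed share was 0.0146. With the median of ratios they were 0.0128 for all members, 0.079 for eIF2, 0.0282 for eIF2B, 0.0379 for eIF3 and -0.0338 for eIF4, with 1 higher, 1 lower and a share ratio of 0.0405. The lower gene was Eif2d in both. Without mitochondrial and ribosomal protein genes they were -0.0304 for all members, 0.0359 for eIF2, -0.00528 for eIF3 and -0.0769 for eIF4, with 2 lower (Eif2d and Eif4a2, where 5.35% of all genes were) and a share ratio of -0.00264. The signs of 7, 10 and 3 of the 47 members changed under these scalings. In cells of 5000 to 15000 UMIs the eIF4 median was -0.243, 8 members were lower (17.1% of all genes) and the share ratio was -0.0841. Thinning gave -0.11 for eIF2 and a share ratio of -0.0883. A minimum of 50 CPM gave -0.27 for eIF2B, where fewer genes remained. No minimum gave 1 higher member, Eif4e3 with 13 and 17 UMIs, where 14.6% of all genes were higher. It also gave 7 lower members, where 18.8% of all genes were. Eif5a2 (161 and 99 UMIs) and Eif2c5 (5 and 3) joined the 5 there. Ranges chosen after seeing the data moved more. In cells of 5000 to 10000 UMIs the medians were -0.21 for all members, -0.22 for eIF2, -0.21 for eIF2B and -0.33 for eIF4, with 14 lower and a share ratio of -0.16. In cells of 10000 to 20000 UMIs the eIF3 median was -0.0375, 10 members were lower and the share ratio was -0.0683. Limits of 5000 UMIs or 5% mitochondrial UMIs, doublets removed, the mean per cell and 1 CPM added moved none of these values.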
